A study of Ovis aries with 4 samples.

Results

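Genes annotated to the ribosome were examined in lists of N6-methyladenosine (m6A) peaks from sheep ovary. A gene was a member when the pathway annotation deposited with its peak held the term Ribosome, which 62 of the 5261 genes with a peak did. Of these, 16 were named genes of the cytosolic ribosome, 20 were named genes of the mitochondrial ribosome, and 26 carried only a LOC identifier together with the symbol of a cytosolic ribosomal protein. The samples came from Cele black sheep ovaries of an age of 1 to 2 years (young) or 5 to 6 years (aged), with no other treatment or genotype in the labels. At each age there was an immunoprecipitate made with an antibody against m6A and an input without antibody, 4 samples in all. Only the peaks of the immunoprecipitates were analysed here, as a young and an aged list. The labels do not say how many animals stand behind a sample.

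The cytosolic ribosome reads messenger RNA with its small subunit and joins amino acids with its large subunit. Each of its proteins is encoded by a highly expressed housekeeping gene, and mammalian genomes also hold many processed copies of these genes. Transcripts of cytosolic ribosomal proteins begin with a short pyrimidine tract through which mTOR signalling controls their translation, and their untranslated regions are short. Mitochondrial ribosomal proteins are encoded in the nucleus and imported, and their ribosome makes the respiratory chain subunits encoded by mitochondrial DNA. The mark m6A is set mainly near stop codons and in 3' UTRs of messenger RNA and is bound by proteins that act on translation and decay.

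A peak is a stretch of transcript over-represented after immunoprecipitation, and its fold enrichment, its p and its adjusted p are the authors' own. Peak positions are those of the deposited lists, whose genome build is not named. There were 4378 young peaks (3846 genes) and 3656 aged peaks (3086 genes). With 1 list per age there was no replicate check and no test between ages, and intervals given here are Wilson 95% intervals that cover counting error only and treat genes as independent. Depth and transcript abundance are unknown, so a gene without a peak may lack the mark, lack RNA or lie below detection, and these cannot be told apart. In tissue RNA, fewer cells of a type and less RNA per cell cannot be told apart either. Peaks of the young list had a median deposited log10 p of -15.3, against -6.22 in the aged list, and the part of this difference in the results was not tested. Of 13 genes typical of the ovary, 7 had a peak, where 24.5% of protein-coding genes did. They included the inhibin subunit gene INHBB at both ages (3' UTR peaks with young and aged folds of 3.33 and 1.67, stop codon peaks with 1.58 and 1.85), the steroidogenic gene STAR (2.75) and INHBA (2.67) in the young list, and the oocyte gene NOBOX (2.85) in the aged list.

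Ribosome genes had their peaks mostly in the young list. Of the 62 members, 42 were young-only, that is, had a young peak and no aged one, which is 67.7% (55.4 to 78.0). Another 13 were shared between the lists and 7 were aged-only. The shares over the 5261 genes were 41.3% for young-only, 31.8% for shared and 26.9% for aged-only. The 13 shared members were 23.6% of the 55 members in the young list and 65.0% of the 20 in the aged list, against 43.4% and 54.1% over all genes. By group, 13 named cytosolic genes had young peaks alone, 2 had peaks at both ages and 1 had an aged peak alone. For named mitochondrial genes the counts were 13, 4 and 3, and for LOC genes 16, 7 and 3. When the longer list was shortened to the length of the shorter one by the deposited p, 34 of 54 members (63.0%) were young-only and 10 (18.5%) aged-only, against 37.4% and 32.8% of all genes. In that setting 11 of 14 named cytosolic genes were young-only.

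**Figure D1:**
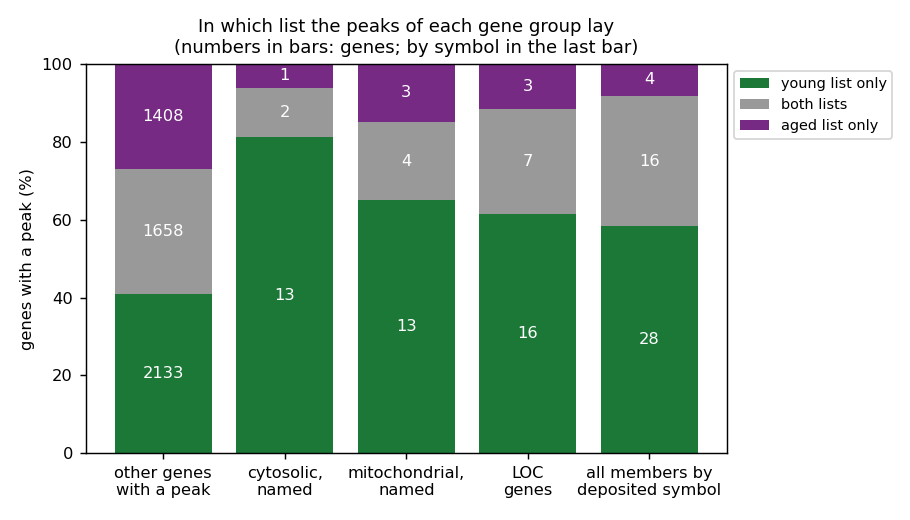
Percent of genes with a peak (y axis) whose peaks were young-only, shared or aged-only, for genes without the Ribosome term and for each group of members; numbers in the bars are genes, or distinct deposited symbols in the last bar. The young-only part is 2133 of the other genes, or 41.0%, less than in each group of members counted by gene. The last bar counts symbols, and the other genes were not counted that way.

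Proteins of the cytosolic large subunit gave 11 of the 16 named cytosolic members. RPL27, a core protein of that subunit, had a young peak on chromosome 11 (42791273 to 42791581, plus strand, labelled stop codon) with a fold of 1.95. RPL18 and RPL29 (chromosome 19, 49020404 to 49020549) each had a young fold of 1.70, RPL14 1.62, RPL22 1.59 and RPL35, which lies near the exit of the peptide tunnel, 1.51. These genes had no aged peak. RPL5, which binds the 5S ribosomal RNA and can hold the p53 inhibitor MDM2, had a young peak on chromosome 1 (70037098 to 70040346) with a fold of 1.56, and RPL36AL, a paralogue of RPL36A, one with 1.51. RPL24 on chromosome 1 (young peak 166963270 to 166964869), which reaches across the subunit interface, had young and aged folds of 1.5 and 1.53. RPL28 on chromosome 14 (62884260 to 62884613) had 1.57 and 1.52. Both genes thus sat near the lowest fold of the lists, 1.5, at both ages. RPL21 was the only named cytosolic member in the aged list alone, with a fold of 1.73 on chromosome 10 (32897359 to 32897664).

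All 5 named small subunit members were young-only (95% interval 56.6 to 100%), against 41.3% of all genes with a peak. Of the 6 LOC members of that subunit, 5 were young-only and 1 was aged-only. RPS6, the substrate of the S6 kinases, had a peak labelled exon with a fold of 1.55 on chromosome 2 (87896093 to 87898696). RPS9 had a fold of 1.61, and RPS10, which is ubiquitinated when ribosomes collide, 1.60. RPS27L, a p53-induced paralogue of RPS27, stood apart with a fold of 2.48 and a deposited log10 p of -102 on chromosome 7 (45081790 to 45083120). The next lowest log10 p among named cytosolic members was -52.5, for RPL29.

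Named cytosolic members thus combined low folds with low p-values. Their 15 young peaks had a median fold of 1.60 against 2.05 for all young peaks, and a median log10 p of -27.0 against -15.3. A fold of 2.00, the median over both lists, was reached by 1 of the 15, RPS27L, whereas 58.3% of all young peaks reached it. The 3 aged peaks of this group had folds of 1.52 to 1.73, and none reached 2.00, which 42.7% of all aged peaks did. Mitochondrial members reached it in 8 of 17 young and 2 of 7 aged peaks, with median folds of 1.92 and 1.83.

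**Figure D2:**
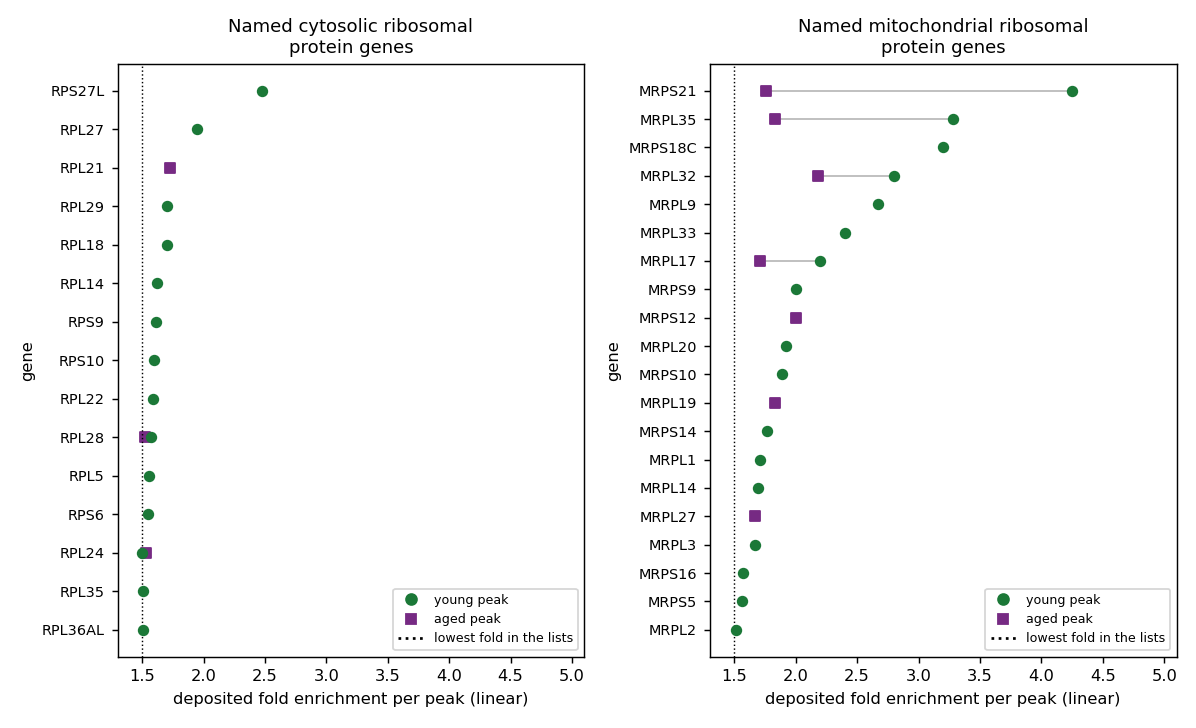
Deposited fold enrichment (x axis, linear) of each peak of 15 named cytosolic (left) and 20 mitochondrial (right) members, 1 gene per row, with young peaks as circles, aged peaks as squares and the lowest fold of the lists as a dotted line. Of the cytosolic genes only RPS27L passes 2.00, while the mitochondrial genes reach 4.25 in MRPS21.

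Of the mitochondrial large subunit, 12 genes were members. MRPL35 had the highest fold, 3.28 in the young list (chromosome 3, 58108963 to 58109257) and 1.83 in the aged list, both labelled stop codon. MRPL32 on chromosome 4 (79787451 to 79787836), which is matured by a protease of the inner membrane, had 2.80 and 2.18. MRPL17 on chromosome 15 (46131128 to 46131327) had 2.20 and 1.71. In these 3 shared genes the young fold was the higher one. The young-only genes of this subunit were MRPL9 (2.67), MRPL33 (2.40), MRPL20 (1.92), MRPL1 (1.71), MRPL14 (1.69), MRPL3 (1.67) and MRPL2 (1.51). MRPL19 (1.83) and MRPL27 (1.67) were aged-only. The peak of MRPL27 had an adjusted p of 0.0676, the only member peak above 0.05.

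The mitochondrial small subunit had 8 members, of which MRPS21 was shared. Its peak had the same boundaries at both ages on chromosome 1 (100374153 to 100385055, of which 394 bases are exonic), with a young fold of 4.25 and an aged fold of 1.76. By fold, the young peak ranked 64 among the 4378 young peaks. MRPS18C followed with 3.20, then MRPS9 (2.00), MRPS10 (1.89), MRPS14 (1.77), MRPS16 (1.57) and MRPS5 (1.56), all young-only. MRPS16 on chromosome 25 (28516810 to 28516997) had the lowest log10 p of the mitochondrial members, -84.0, at one of their lowest folds. MRPS12, the counterpart of a bacterial protein of the decoding centre, was aged-only with a fold of 2.00 on chromosome 14 (48009810 to 48010206).

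The 26 LOC members carried 18 distinct symbols, all of cytosolic proteins. In the RefSeq gene table of assembly ARS-UI_Ramb_v3.0, 22 of them still had a LOC name as protein-coding genes, and 15 of these spanned under 1000 bases (median of the 22, 810 bases). The named cytosolic members spanned 1182 to 9484 bases, with a median of 3954. Where the table also held the named gene of the symbol, the LOC gene was the shorter one in 17 of 20. Some of these genes may be near-identical copies, whose reads can be assigned to either gene, so the value of each LOC gene and of its named counterpart is uncertain. The others are special cases. LOC101105982 is named RPL36A in the table, LOC101115926, deposited as RPL17, is named C23H18orf32, LOC105604842, deposited as RPS9, is a pseudogene there, and LOC114108644 was not matched.

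The 25 young peaks of LOC members had a median fold of 2.07, close to the 2.05 of all young peaks and above the 1.60 of named cytosolic genes. Of the 25, 14 reached 2.00, against 58.3% of all young peaks. Their 11 aged peaks had a median fold of 1.85. The highest belonged to LOC114112986, deposited as RPS15A, with 4.82 on chromosome 2 (67858461 to 67858693, plus strand), rank 27 of the young list. A second gene with that symbol, LOC101108400, had 1.92, and neither had an aged peak. LOC105614819 (RPL23) on chromosome 3 (187796538 to 187796778) had young and aged folds of 3.33 and 1.97. LOC114112992 (RPL30) on chromosome 2 (74776781 to 74776969) had 3.17 and 1.73, so in both genes the young fold was the higher one. The 2 peaks of LOC105604842 (RPS9) had young folds of 3.00 and 1.5.

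Several symbols were carried by more than 1 gene. RPL5 stood on 4 genes, the named gene and LOC101118481 (2.51), LOC101113750 (2.31) and LOC101104787 (2.14), all with a young peak, and LOC101104787 also with an aged peak of 1.79. RPL17, whose product lines the exit of the peptide tunnel, stood on 3 LOC genes: LOC101114013 (2.07) and LOC101114033 (1.72) were young-only, and LOC101115926 had 1.88 and 1.97. RPL27 stood on the named young-only gene and on LOC101102690 (chromosome 23, 35679731 to 35679923), which had 1.84 and 1.85. For RPL10A, a protein of the L1 stalk, both genes were young-only, LOC114114996 (2.40) and LOC101120019 (2.18), as was LOC121816084 (1.51), which carries the symbol RPL14.

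For 3 symbols the young and the aged peak lay on different genes. RPL21 had its aged peak on the named gene and a young peak of 2.38 on LOC101117395. RPS3A had a young peak on LOC101116252 (1.67) and an aged one on LOC101108561 (2.40, adjusted p 0.00603), and RPL4 a young one on LOC114114491 (2.14) and an aged one on LOC105606693 (2.45). Counted by symbol, the members were 48, of which 28 (58.3%) were young-only, 16 (33.3%) shared and 4 (8.33%) aged-only. The share of young-only members was thus lower by symbol than by gene, and the shared part was higher. All genes with a peak were not counted by symbol, so these shares have no like value beside them. The remaining LOC members were LOC101105982 (1.88, with the symbol RPL36A that RPL36AL was also given), LOC101109545 (RPL13A, 1.80) and LOC101121718 (RPS4X, 1.76) in the young list only, LOC101107369 (RPL35A, 1.62) in the aged list only, and the shared genes of RPL12 and RPL23A described with the peak positions.

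**Figure D3:**
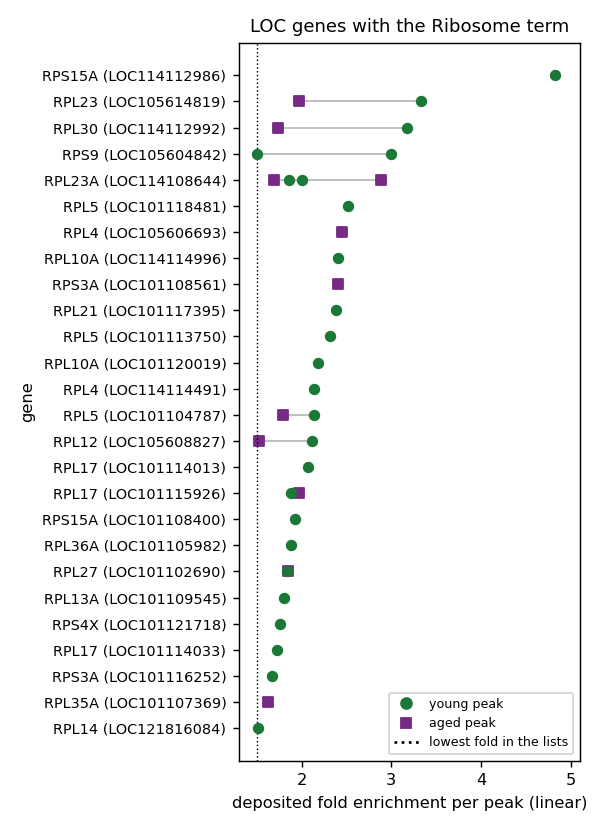
Deposited fold enrichment (x axis, linear) of every peak of the LOC members, 1 gene per row with its deposited symbol, young peaks as circles and aged peaks as squares joined by a grey line. LOC114112986 (RPS15A) is highest with 4.82, and the aged peak is the highest of its gene only in 3 shared rows, those of RPL23A (2.88), RPL17 (1.97) and RPL27 (1.85).

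**Figure D4:**
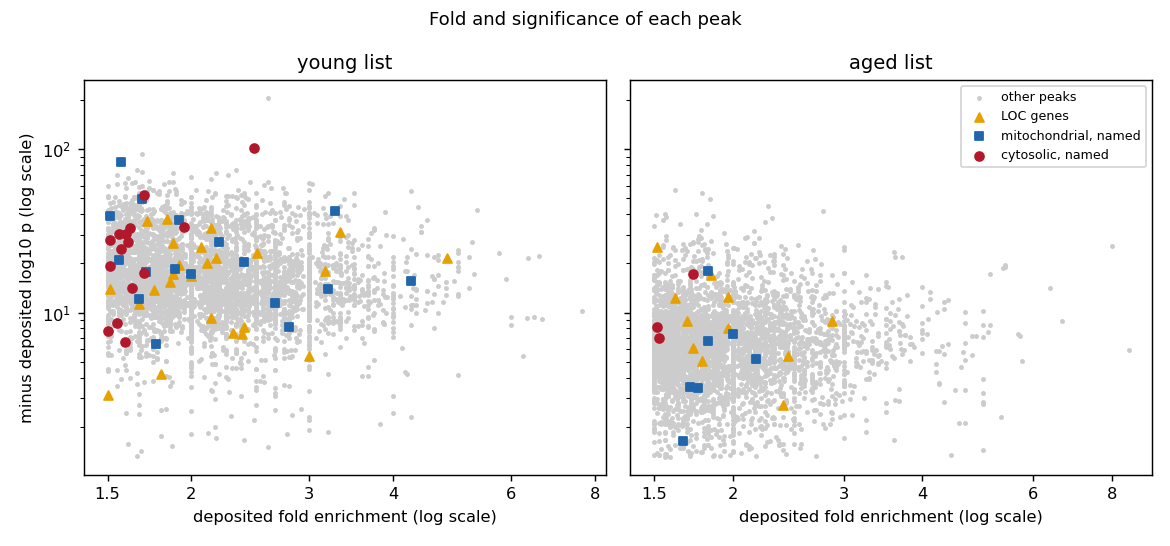
Minus the deposited log10 p (y axis, log scale) against deposited fold (x axis, log scale) of each peak, in the young (left) and aged (right) list, with members coloured by group and all other peaks in grey. Named cytosolic members crowd at the left edge, with young medians of 1.60 for fold and -27.0 for log10 p.

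Where a member had peaks at both ages, these mostly lay at the same place. Shared members gave 14 pairs of peaks, of which 13 overlapped by 1 base or more on their strand. In 9 pairs both peaks lay within 1 exon, and in the others overlap was counted with introns included. Such pairs were not formed for all shared genes, so these counts have no share over all genes beside them. Boundaries were identical in 3 pairs, those of LOC101102690 (RPL27), LOC105614819 (RPL23) and MRPS21, and 5 pairs had the same 3' boundary. Over all member peaks, 13 of 57 young peaks (22.8%) and 14 of 21 aged peaks (66.7%) overlapped a peak of any gene at the other age, against 34.3% of all young and 41% of all aged peaks. The young fold was higher in 10 pairs and the aged fold in 4. The young log10 p was lower in 13 of the 14. The lists differed in the same direction as a whole. Over all peaks the young and aged median folds were 2.05 and 1.88, and the median log10 p -15.3 and -6.22. Values of the lists may differ in scale, since their normalization is unknown.

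The exception was LOC105608827, deposited as RPL12, a protein of the stalk base. Its young peak on chromosome 14 (47072303 to 47072552) and its aged peak (47072651 to 47072850) were 98 bases apart, with folds of 2.11 and 1.52. It was also the pair in which the aged log10 p was the lower one (-25.4 against -20.1). In the young list a peak of LOC101109901, deposited as ZNF607, overlapped it with introns included, and the aged RPL12 peak lay within that span. LOC114108644 (RPL23A) had 2 peaks at each age on chromosome 19, labelled 5' UTR (2.00 and 1.69) and 3' UTR (1.86 and 2.88). At both ages these overlapped the span of a peak of CMC1, a gene for assembly of cytochrome oxidase, on the same strand, so their assignment to the ribosomal gene is uncertain. In MRPL17 the young and aged peaks shared 51 bases.

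**Figure D5:**
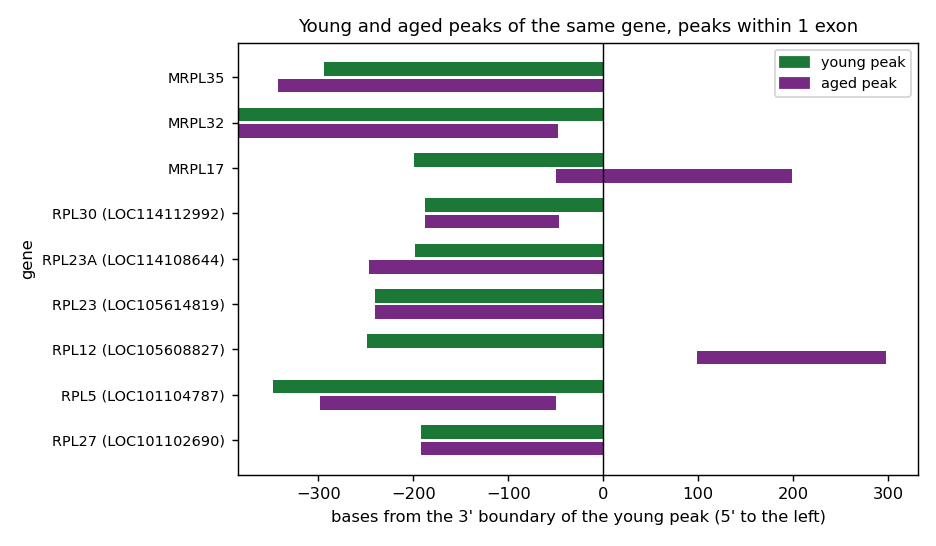
Position of the young and aged peaks of the same gene in bases from the 3' boundary of the young peak (x axis, 5' to the left), for the 9 pairs in which both peaks lay within 1 exon. The bars overlap except in LOC105608827 (RPL12), and those of LOC101102690 (RPL27) and LOC105614819 (RPL23) coincide.

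Most peaks of ribosome genes were labelled stop codon or 3' UTR, as were most peaks of both lists. The label 3' UTR was given to 12 of 57 young member peaks (21.1%) and to 10 of 21 aged ones (47.6%). Over all peaks its shares were higher, 47.3% and 66.4%. The label stop codon was given to 36 of 57 young member peaks (63.2%, 50.2 to 74.5) and to 7 of 21 aged ones (33.3%, 17.2 to 54.6), against 41.3% and 15.3% of all peaks. Named cytosolic members carried it in 12 of 15 young peaks, LOC members in 17 of 25 and mitochondrial members in 7 of 17. In the aged list the label depended on strand: 0 of 7 member peaks on the minus strand and 7 of 14 on the plus strand had it, against 2.58% and 27.5% of all aged peaks. All aged peaks of named cytosolic genes lay on the minus strand and were labelled exon. RPL28 and LOC114112992 (RPL30), both on the minus strand, were labelled stop codon in the young list and exon and 3' UTR in the aged list, although the peaks overlapped. On the plus strand LOC101104787 (RPL5) also went from stop codon to 3' UTR with overlapping peaks. LOC101102690 (RPL27), LOC105614819 (RPL23) and MRPL35, on the plus strand too, kept the stop codon label.

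Member peaks labelled stop codon mostly lay close to gene ends, 34 of 36 young and 6 of 7 aged ones within 60 bases. The exceptions were MRPL35, 2130 bases away at both ages, and LOC101109545 (RPL13A), 949 bases away in the young list. This distance was not counted for all peaks with the label. Of 53 young member peaks on genes matched to the table, 21 stopped exactly at the gene's final base (29.4% of all young peaks did), and all 21 had the stop codon label. Another 7, all on LOC genes, ran past it, against 3.65% of all young peaks. Among aged peaks 3 of 18 stopped exactly there, against 9.1% of all aged peaks, and 1, on LOC101108561 (RPS3A), ran past it, against 2.14%. Named cytosolic members stopped exactly there in 11 of 15 young peaks, among them RPL5, RPL27, RPL29 and RPS10. In LOC genes under 1000 bases a peak covered 14.5 to 50.8% of the gene, so its position within the transcript is coarse.

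Peaks of named cytosolic genes mostly spanned exon junctions. An intron lay within 11 of their 15 young peaks and all 3 aged peaks, against 16.9% of all young and 22.5% of all aged peaks. For mitochondrial members these numbers were 6 of 17 and 1 of 7. LOC members had an intron within 3 of 25 young and 2 of 11 aged peaks. Median exonic widths of young peaks were 194 bases for named cytosolic members and 190 bases for LOC members, against 195 for all.

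Under their own name, 14 of 79 listed core proteins of the cytosolic ribosome (17.7%, 10.9 to 27.6) had a peak, 4 of 32 in the small and 10 of 47 in the large subunit. This interval holds the 24.5% of the protein-coding genes of the table that had a peak in either list. With LOC genes of the same symbol 27 of 79 had one, and 52 had none. Of 82 listed mitochondrial ribosomal proteins 42 (51.2%, 40.6 to 61.7) had a peak. Of the 42, 28 were young-only, 10 shared and 4 aged-only, where all genes with a peak gave 41.3%, 31.8% and 26.9%. The Ribosome term was missing from the deposited annotation of 22 of the 42, with 15 young-only, 6 shared and 1 aged-only. Among these 22, MRPL49 (3.62), MRPL57 (3.00) and MRPS23 (2.67) had young peaks only, while MRPS30 had folds of 2.15 and 2.42. The symbol MRPS28 was deposited on peaks of TPD52 (5.00 and 2.02), which were singled out after their values were seen and are not counted under MRPS28 by gene name. Of the listed paralogues, RPL7L1 was shared (1.66 and 1.59) and lacked the term.

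Genes that build or regulate ribosomes were also listed. Of 50 ribosome assembly genes 33 (66.0%, 52.2 to 77.6) had a peak, against 24.5% of protein-coding genes. Of the 33, 14 were young-only, 16 shared and 3 aged-only, where all genes with a peak gave 41.3%, 31.8% and 26.9%. The nucleolar genes RRS1 (5.00) and PES1 (3.83) were young-only, and UTP20 (3.12 and 2.75), a factor of small subunit processing, was shared. SURF6 was shared too, with overlapping young and aged peaks of 2.00 and 2.14 and a separate young peak of 3.31. Among 15 regulators of transcripts with a pyrimidine tract, 7 had a peak. MTOR was shared, with folds of 2.08 and 2.32 at the same place, and LARP1 (2.05), which binds the tract, and EIF4EBP1 (2.25) were young-only. The S6 kinase gene RPS6KB1 had a young peak of 1.54 and an aged peak of 2.45 at different places in its 3' UTR. For rescue of stalled ribosomes 5 of 12 genes had one. ASCC2 (2.13 and 2.69) and PELO (2.33 and 1.80) had overlapping peaks at both ages, ASCC3 (2.24) was young-only and GIGYF2 (2.38) aged-only.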

How the data were processed

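Total RNA of ovarian tissue was made into stranded libraries, per the labels' protocols. Aligner, peak caller and genome build were not given in the sources used here. ChIPseeker and DESeq2 are named without a role, per the submitters' processing notes. Per the file headers, the authors give each peak a fold enrichment (a linear ratio), a p-value and its adjusted form. The deposited log10 p is used as a score. Deposited folds start at 1.5 and deposited p-values reach 0.049.

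Members were all genes with the exact term Ribosome. Members and gene lists were chosen with earlier results of these data known. The text names the members, except 1 that is not reported here by name, and of each other list up to 4 genes with the highest folds. Genes were young-only, aged-only or shared by gene identifier. Overlap meant 1 shared base or more on a strand, introns included. Starts were shifted to count from 1. The RefSeq table (assembly ARS-UI_Ramb_v3.0) matched 59 of 62 members by gene identifier. It gave names, chromosome numbers, gene lengths and gene ends, and all 71 matched member peaks touched their gene there, but the files' build is not named. Code was tested on simulated data. Alternatives are given in the closing section. Python 3.11.15, pandas 2.3.3 and numpy 2.4.6 were used.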

Additional observations from a re-analysis of the deposited data

How the results depend on the processing

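The shares of members by list, the overlap, the stop codon share and the median fold were recomputed with stricter folds (at least 2.00), lists of equal length, adjusted p up to 0.01, without LOC genes, on the plus strand alone, with peaks within 1 exon, with members by symbol, and with an overlap of 50% of both peaks. Counting by deposited symbol was added after seeing the data. Of 68 alternative values, 60 stayed within the 95% interval of the reported value. With stricter folds, 80.8% of members were young-only and 7.69% shared, against 54.7% and 19.1% of all genes. Overlap was found for 1 of 23 young member peaks (4.35%) and 1 of 5 aged ones (20.0%). It was not computed for all peaks in this setting. Both median folds of members were 2.40, since the setting removes lower folds. It left 1 named cytosolic gene, so nothing can be said of that group there. Without LOC genes the median young fold was 1.69, and by deposited symbol 33.3% were shared. Young-only shares of members otherwise ranged from 58.3% by deposited symbol to 72.2% without LOC genes. Over all genes they ranged from 37.4% with equal list lengths to 44.6% with peaks within 1 exon, and were 41.1% without LOC genes. All genes were not counted by symbol, so the 58.3% has no like value. No paired analysis was possible because each age has 1 peak list and the labels give the ages different replicate numbers. Depth is unknown, so its effect on which members have a peak was not tested.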
